A study of Mus musculus with 9 samples.

Results

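The S100 genes encode small calcium-binding proteins, and 9 of them were followed here in the liver of mice given an antibody that activates CD40. The members were S100a1, S100a4, S100a6, S100a8, S100a9, S100a10, S100a11, S100a13 and S100a16, taken by name from a table of 24326 genes with a usable value in every mouse. The study asked what systemic CD40 activation does to the liver, and RNA was taken 2 days after treatment. All mice were C57BL/6 and WT. The 3 anti-CD40 mice, labelled with the treatment CD40, were mice 2, 5 and 9, and the 6 control mice, labelled PBS, were mice 3, 4, 7, 8, 11 and 12. The labels give no age or sex, and the methods of the study describe sex-matched young adult mice. According to those methods, some antibody-treated mice were left out when the drop in blood B cells that marks the drug's action was missing, so the treated group may be a selected one. Each library was made from whole liver, so in every comparison a change in the cells present and a change in RNA per cell cannot be told apart.

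S100 proteins carry a pair of EF-hands, loops that hold calcium. Most work as dimers, and calcium opens a surface with which they grip other proteins. S100A8 and S100A9 form calprotectin, a dimer that fills the cytosol of neutrophils and is also made by monocytes. When released, calprotectin binds metal ions and signals through TLR4 and the receptor RAGE. The other members are more widely expressed. S100A4 binds non-muscle myosin IIA and is found in motile cells, macrophages and fibroblasts, S100A6 binds the calcyclin-binding protein, S100A10 pairs with annexin A2 and S100A11 with annexin A1. S100A10 differs from the rest in that it no longer binds calcium. S100A1 is best known from heart and skeletal muscle, where it acts on calcium pumps and channels, S100A13 takes part in the release of FGF1, and S100A16 is widely expressed.

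After anti-CD40, 5 members rose (S100a8, S100a9, S100a4, S100a11 and S100a6) and 4 fell (S100a13, S100a1, S100a16 and S100a10), by limma across all genes at an adjusted p under 0.05, although S100a10 turned upward under quantile normalization. Of the 13807 genes tested, 23.5% were called higher and 21.7% lower (45.1% in either direction), so a call alone was common in these livers. The increases were larger than the decreases. S100a9 and S100a8 had the 14th and 15th highest log2 fold changes of all genes tested, whereas the lower members fell by 1.48 or less on the log2 scale. In 8 of the 9 members the anti-CD40 and control mice did not overlap, 5 of them higher (22.7% of all genes tested) and 3 lower (19.6%), against 42.4% of all genes in either direction. The median log2 fold change was 2.30 over the members and 0.0056 over all genes tested.

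**Figure D1:**
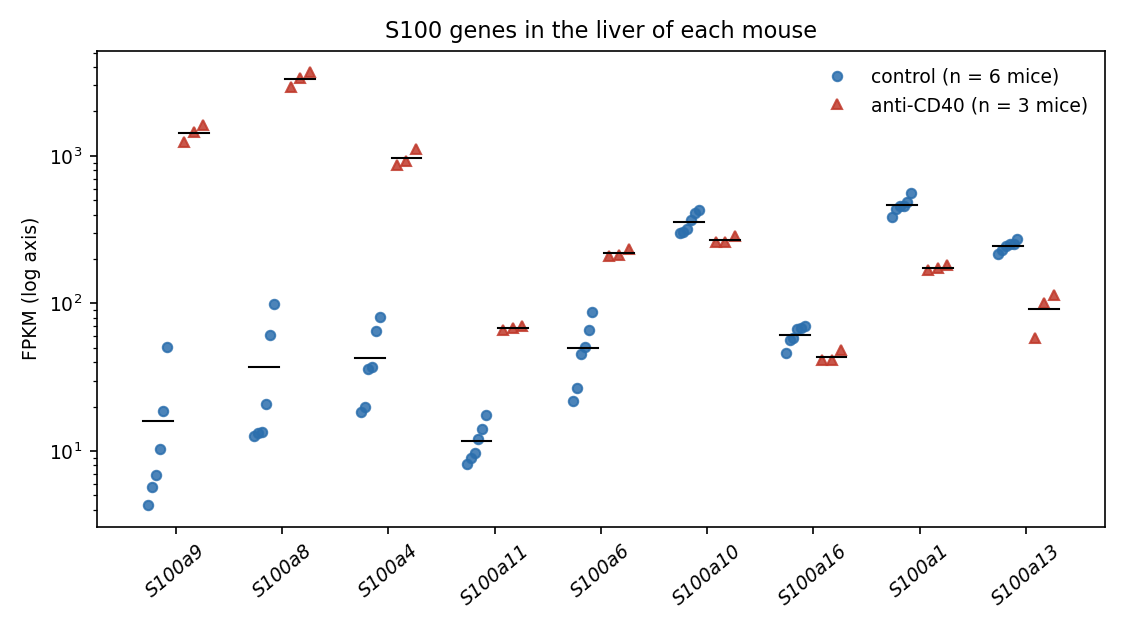
FPKM on a log axis for each S100 gene, with 1 point for each mouse (circles, 6 control mice; triangles, 3 anti-CD40 mice) and a bar at the group mean. The groups are apart in every gene except S100a16, and the widest gaps are in S100a9 and S100a8. Heights of different genes are not to be compared, because FPKM divides 3′ reads by transcript length.

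Of these genes, 7 lie in 1 block on chromosome 3 of mm10, from 90511034 to 90695721. The table has 5 other S100 genes in this block and no other gene, although the annotation places further genes there, such as Gm42674. Along this stretch of 185 kb, the members that fell came first (S100a1, S100a13 and S100a16) and those that rose came after them (S100a4, S100a6, S100a8 and S100a9). S100a11 and S100a10 are neighbors of each other, 28.8 kb apart, and lie 2.82 Mb beyond the block. They moved in opposite directions, except that S100a10 was slightly higher with quantile normalization. The nearest gene of the table before the block, Chtop, which encodes a chromatin protein, lies 1.536 kb from it. Chtop had mean FPKM of 28.0 ± 0.0584 (SD, n = 3 treated mice) and 30.7 ± 1.42 (SD, n = 6 controls), with a limma adjusted p of 0.257.

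**Figure D2:**
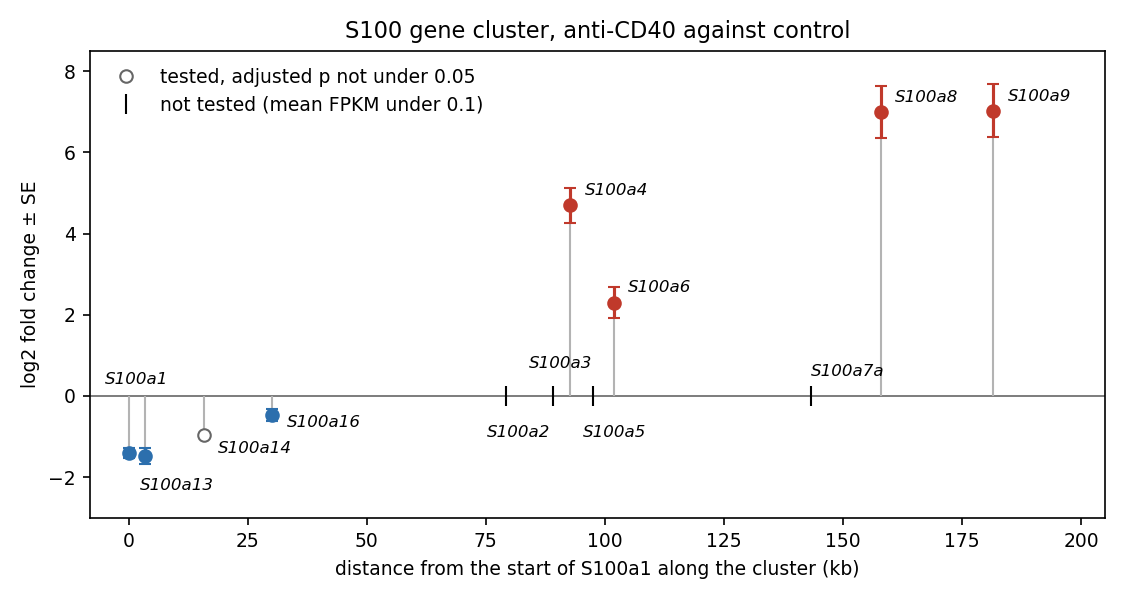
Log2 fold change, anti-CD40 against control, with its standard error from limma, by distance in kb from the start of S100a1 along the chromosome. Filled points are genes with an adjusted p under 0.05 (red, higher; blue, lower), the open point is S100a14, and ticks mark S100 genes whose mean FPKM was under 0.1. S100a1, S100a13 and S100a16 at the left are below 0, and S100a4, S100a6, S100a8 and S100a9 at the right are above it.

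The sequences just upstream of the start sites are shown for the 3 members with the largest increases and for the shared upstream stretch of the 2 members with the largest decreases. They are the 250 bases before each start in RefSeq (build GRCm38.p6, the same coordinates as mm10), which had an entry for 8 of the 9 members. S100a10 had none. Capitals mark matches, on either strand, to 6 short motifs: C/EBP (TTGCNNAA), NF-kB (GGG, any 5 bases, then CC), STAT (TTCNNNGAA), PU.1 (GAGGAA), AP-1 (TGANTCA) and the TATA box (TATAAA). Matches can overlap, as 2 NF-kB matches of S100a4 do with each other, and the last PU.1 match of S100a8 ends just before its TATA box. The windows are S100a8 (chr3:90668821-90669070, plus strand), S100a9 (chr3:90695722-90695971, minus strand) and S100a4 (chr3:90603520-90603769, plus strand), and each is written along its gene.
S100a8: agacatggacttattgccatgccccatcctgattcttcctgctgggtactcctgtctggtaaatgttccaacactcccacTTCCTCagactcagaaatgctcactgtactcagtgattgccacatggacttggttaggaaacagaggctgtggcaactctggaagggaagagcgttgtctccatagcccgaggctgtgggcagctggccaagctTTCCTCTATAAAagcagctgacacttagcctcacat
S100a9: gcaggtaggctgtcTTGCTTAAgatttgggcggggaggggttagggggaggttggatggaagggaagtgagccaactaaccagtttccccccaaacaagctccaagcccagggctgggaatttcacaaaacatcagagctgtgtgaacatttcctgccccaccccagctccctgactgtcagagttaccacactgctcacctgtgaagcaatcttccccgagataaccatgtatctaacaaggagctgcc
S100a4: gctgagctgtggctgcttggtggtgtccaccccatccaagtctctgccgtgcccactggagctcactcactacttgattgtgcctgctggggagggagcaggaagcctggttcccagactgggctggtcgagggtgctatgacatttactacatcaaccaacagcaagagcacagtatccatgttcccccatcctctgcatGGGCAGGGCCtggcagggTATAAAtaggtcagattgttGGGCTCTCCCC
S100a8 held 2 PU.1 matches, which begin 170 and 36 bases before the start, and a TATA box at 30 bases. S100a9 held a C/EBP match 236 bases before the start and no TATA box. S100a4 held a TATA box at 31 bases and 3 NF-kB matches, at 49, 11 and 10 bases. Among all 32851 windows of this length, 23.3% held the PU.1 motif, 9.56% C/EBP, 45.8% NF-kB, 12.4% the TATA box, 7.02% STAT and 6.75% AP-1. None of the members' windows held a STAT match, and S100a11 held 2 AP-1 matches, at 136 and 38 bases. S100a16, a member that fell, held an AP-1 match 192 bases before the more downstream of its 2 start sites. NF-kB matches were also present in S100a1, S100a6, S100a11, S100a13 and S100a16, and PU.1 matches in S100a11 and S100a16. A match of letters is a description and shows no binding.

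S100a1 and S100a13 are read in opposite directions from starts that lie only 104 bases apart in the table, so the stretch below is upstream of both (chr3:90514331-90514434, plus strand, build GRCm38.p6). It is written along S100a13, which follows it, and S100a1 lies before it on the minus strand. In the GENCODE annotation of the same build, S100a1 begins well inside this stretch, at 90514392. By that annotation, only the bases after this position are upstream of both genes.
S100a1 and S100a13: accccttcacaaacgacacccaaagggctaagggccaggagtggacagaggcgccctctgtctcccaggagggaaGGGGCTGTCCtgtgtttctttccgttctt
Its G and C content was 58.7%, against a median of 52.4% over all windows, and it held 3 CG pairs and 1 NF-kB match, marked in capitals.

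Of the calprotectin genes, S100a8 (chromosome 3, 90669071 to 90670034, plus strand) had an FPKM of 3354, 3677 and 2916 in anti-CD40 mice 2, 5 and 9. In control mice 3, 4, 7, 8, 11 and 12 it was 20.9, 99.2, 61.3, 13.3, 12.6 and 13.5. The lowest anti-CD40 mouse was thus 29.4 times the highest control mouse, while the control mice themselves spread 7.89-fold. S100a9 (90692630 to 90695721, minus strand) was at 1619, 1454 and 1239 in the same anti-CD40 mice. Its control values were 10.3, 50.3, 18.7, 4.30, 5.73 and 6.89, again highest in mouse 4 and next highest in mouse 7. The log2 fold changes, on the log2(FPKM + 0.1) scale, were 7.00 for S100a8 (95% interval 5.57 to 8.42, adjusted p = 1.45e-05 from limma) and 7.02 for S100a9 (5.58 to 8.46, adjusted p = 1.55e-05 from limma). With each mouse left out in turn, they stayed between 6.79 and 7.39 and between 6.76 and 7.46.

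The proportion of the calprotectin transcripts to each other was compared by mouse, since transcript length cancels in the change of a ratio. The ratio of S100a8 to S100a9 FPKM came to 2.07, 2.53 and 2.35 in anti-CD40 mice 2, 5 and 9 and to 2.03, 1.97, 3.27, 3.10, 2.20 and 1.96 in control mice 3, 4, 7, 8, 11 and 12. The anti-CD40 values lay inside the control range. The log2 ratio differed by -0.023 between the groups (exact permutation p = 0.905, 2-sided, 95% interval -0.56 to 0.36 from inverting the test). The interval spans changes of the ratio in either direction. Among the 6 control mice, S100a8 and S100a9 rose and fell together (Pearson r = 0.966, exact permutation p = 0.00417; Spearman rho = 0.943, exact permutation p = 0.0167, on the log2 scale). Without mice 4 and 7, the 2 farthest from the median, r was 0.846 over 4 mice, too few to test. Both genes share each library's scaling and cell content, so this is a description of 6 livers.

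**Figure D3:**
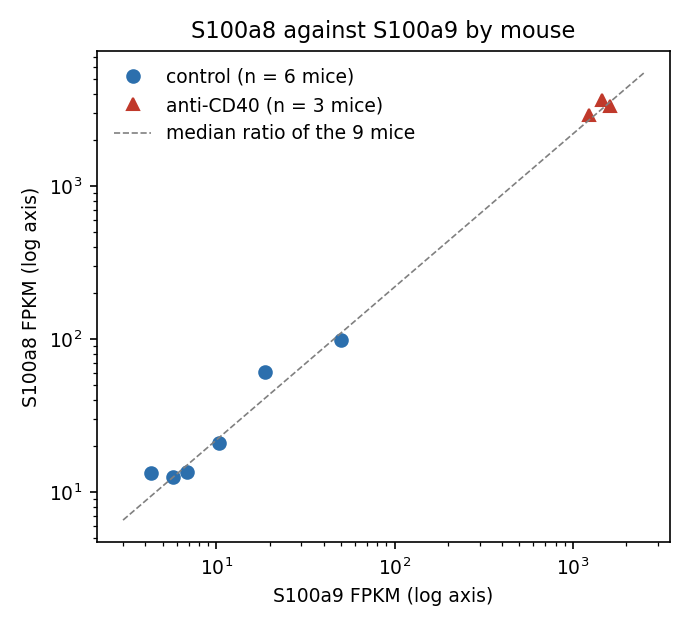
FPKM of S100a8 against that of S100a9, both on log axes, with 1 point for each mouse. The dashed line is the median ratio of the 9 mice, 2.20. The 3 anti-CD40 mice and the 6 control mice lie along the same line, with control mice 4 and 7 the highest of their group.

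Most tested markers of the cells that make calprotectin moved with it. All 9 neutrophil markers tested were higher after anti-CD40, of 13 listed, and their summed FPKM was 79.7 to 94.96 after anti-CD40 against 0.832 to 7.53 in controls. Of that list, Ly6g had no row in the table, and Cd177, Elane and Mpo were under the mean FPKM of 0.1 needed for a test. The groups overlapped in Elane and Mpo but not in Cd177. Cxcr2, Ngp, Ltf, Mmp8 and Stfa2l1 had control means under 0.1 (0.018 to 0.0902). They reached the test only through their anti-CD40 values, so a higher result was built into their being tested. The neutrophil resistin-like gene Retnlg was at 43.9 ± 3.50 (SD, n = 3) after anti-CD40, having been at 0.8004 ± 0.937 (SD, n = 6) in controls. The monocyte and macrophage markers were higher in 8 of 9 genes tested, with sums of 768 to 1062 against 77.1 to 190. Csf1r, which encodes the receptor for a macrophage growth factor, was the one not called. It went the other way, with a log2 fold change of -0.62 (limma adjusted p = 0.0837). Among the monocyte and macrophage markers, Chil3, with a control mean of 0.0879, also reached the test only through its anti-CD40 values. Markers of Kupffer cells, the resident macrophages of the liver, were lower in 5 of 5 genes, with sums of 37.2 to 48.1 against 268 to 425. The part of these cells in the S100 values was not tested. Beside these marker counts, 23.5% of all genes tested were called higher and 21.7% lower.

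Control mouse 4 was the highest control mouse, and mouse 7 the next highest, in all 5 members that rose. Mouse 4 also had the highest control sum of neutrophil markers (7.53, followed by mouse 7 at 4.56), of erythroid markers (50531 against 7494 to 13469 in the other control mice) and of mesothelial markers (28.6, followed by mouse 7 at 20.1). The monocyte and macrophage sum was highest in mouse 7 (190) and next highest in mouse 4 (151). Among the anti-CD40 mice, mouse 5 stood apart with an exocrine pancreas sum of 634, where the other mice were between 0.833 and 3.37. Without mice 5 and 4 together, a setting chosen after the data were seen, the 5 members stayed higher at an adjusted p under 0.05. The part of these mice's cell content in the S100 values was not tested.

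S100a4 (chromosome 3, 90603770 to 90606045, plus strand), the gene of a myosin-binding member, followed the calprotectin genes in size of change. Treated mice 2, 5 and 9 had FPKM of 1116, 863 and 918, against 35.7, 81.4, 64.9, 37.2, 18.5 and 19.9 in control mice 3, 4, 7, 8, 11 and 12. Every anti-CD40 mouse was at least 10.6 times the highest control mouse, and the group means were 966 ± 133 (SD, n = 3) and 42.9 ± 25.2 (SD, n = 6). The log2 fold change was 4.69 (95% interval 3.72 to 5.67, adjusted p = 1.64e-05 from limma), and it ran from 4.49 to 5.09 over the alternatives. An annotated transcript of Gm42674, on the same strand, shares 48.35% of the 40-base stretches of S100a4, so reads of the 2 genes may not be separable. Gm42674 has no row of its own in the table.

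S100a11 and S100a6 changed less, but in each the groups were apart. S100a11 (93520496 to 93526288, plus strand), whose protein takes part in membrane repair, had an FPKM of 68.4, 70.1 and 65.5 in anti-CD40 mice 2, 5 and 9 and 8.11, 17.5, 14.1, 9.68, 8.90 and 12.1 in control mice 3, 4, 7, 8, 11 and 12. Its anti-CD40 mice were the most alike of any member that rose (68.0 ± 2.31, SD, n = 3), and the log2 fold change was 2.58 (95% interval 2.08 to 3.08, adjusted p = 1.08e-05 from limma). S100a11 shares 40-base stretches with 5 other annotated genes, up to 44.07% with Gm12854, and none of these is in the table. S100a6 (90612894 to 90614414, plus strand), also called calcyclin, was at 234, 213 and 211 after anti-CD40 and at 50.5, 87.5, 66.0, 45.6, 21.8 and 26.7 in the same order of control mice. Its log2 fold change was 2.30 (95% interval 1.44 to 3.15, adjusted p = 7.53e-04 from limma). The lowest anti-CD40 mouse was 2.41 times the highest control mouse, mouse 4, so the margin was narrower than in the other members that rose.

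S100a1 and S100a13, the neighbors that share an upstream stretch, fell by similar amounts. S100a1 (90511034 to 90514330, minus strand), which encodes a regulator of calcium pumps in muscle, had an FPKM of 175, 168 and 181 in anti-CD40 mice 2, 5 and 9 and 456, 437, 456, 562, 388 and 483 in control mice 3, 4, 7, 8, 11 and 12. The control mean was 2.65 times the anti-CD40 mean, and both groups were tight (175 ± 6.66, SD, n = 3, and 464 ± 57.7, SD, n = 6). The log2 fold change was -1.40 (95% interval -1.67 to -1.13, adjusted p = 1.06e-05 from limma). S100a13 (90514435 to 90524581, plus strand), whose protein helps to export FGF1, was at 101, 114 and 58.7 after anti-CD40 and at 253, 215, 231, 271, 243 and 255 in the control mice. Mouse 9 was the low one, and without it the log2 fold change of S100a13 moved from -1.48 (95% interval -1.89 to -1.06, adjusted p = 1.25e-04 from limma) to -1.19, with the call unchanged. S100a1 did not share this low value in mouse 9.

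Markers of hepatocytes, the main cells of the liver, were also lower, in 6 of 7 genes tested, with summed FPKM of 4343 to 5437 after anti-CD40 and 12498 to 24228 in control mice. Alb, which encodes albumin, fell by 2.43 on the log2 scale and Apob, which encodes an apolipoprotein, rose by 0.74. Stellate cell and fibroblast markers were higher in 4 and lower in 2 of 8 genes, with sums of 222 to 254 against 210 to 324. Endothelial markers were higher in 2 and lower in 2 of 6 genes (77.0 to 87.4 against 80.8 to 107), and 2 of 5 cholangiocyte markers were higher (68.6 to 98.5 against 8.88 to 17.6). Most of that cholangiocyte sum after anti-CD40 came from the 2 called, Sox9 (mean 54.2 against 4.72) and Spp1 (25.5 against 5.05). Krt19, Krt7 and Epcam were not called (limma adjusted p = 0.235, 0.671 and 0.384), and Cftr was too low for a test. Markers of lymphocytes were higher, in 4 of 4 B cell genes (24.3 to 34.6 against 1.58 to 6.53) and 7 of 8 T and NK cell genes (15.8 to 20.02 against 3.84 to 6.69). Of the dendritic cell genes tested 3 of 4 were higher (1.95 to 2.21 against 1.05 to 1.93). The listed Cd209a, too low for a test, went the other way, at 0.01 in every anti-CD40 mouse and 0.0414 to 0.264 in controls. Of the exocrine pancreas genes 1 of 6 was higher. Of the 4 mesothelial and 5 erythroid genes none was called in either direction by limma (0 also at an unadjusted p under 0.05). Flt3, Cd79a, Cd8a and Cpb1, among those called, had control means under 0.1 and reached the test only through their anti-CD40 values. The part of any of these cells in the S100 values was not tested. The counts stand against 23.5% of all genes tested called higher and 21.7% called lower.

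S100a16 and S100a10 were lower by small amounts that depended on the processing. S100a16 (90541223 to 90543151, plus strand) had an FPKM of 41.1, 41.6 and 48.0 in anti-CD40 mice 2, 5 and 9 and 58.4, 67.0, 69.9, 68.6, 45.8 and 56.8 in control mice 3, 4, 7, 8, 11 and 12. The groups overlapped, since control mouse 11 was below anti-CD40 mouse 9. Its log2 fold change was -0.47 (95% interval -0.80 to -0.15, adjusted p = 0.0216 from limma; exact permutation p = 0.0476), and it was called in 15 of 20 alternative fits, whose adjusted p ran from 0.00472 to 0.555. Leaving out anti-CD40 mouse 2 or mouse 5 ended the call (limma adjusted p = 0.0847 and 0.0756). S100a10 (93555117 to 93564645, plus strand), the annexin A2 partner, was at 287, 259 and 260 after anti-CD40 and at 370, 304, 429, 410, 318 and 299 in the control mice. The highest anti-CD40 mouse was just below the lowest control mouse. The log2 fold change was -0.39 (95% interval -0.71 to -0.076, adjusted p = 0.0449 from limma; exact permutation p = 0.0238, the smallest the design allows). S100a10 was called in only 9 of 20 alternative fits, with adjusted p from 0.0102 to 0.896. Leaving out any 1 of the anti-CD40 mice, or control mouse 3, 7 or 8, ended the call (adjusted p from 0.075 to 0.128 from limma). With quantile normalization it was 0.088 higher on the log2 scale and not called. With the Saa genes left out and each mouse rescaled, which puts the median of all genes at 0.35, S100a10 was at -0.024 and S100a16 at -0.11, both below that median.

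**Figure D4:**
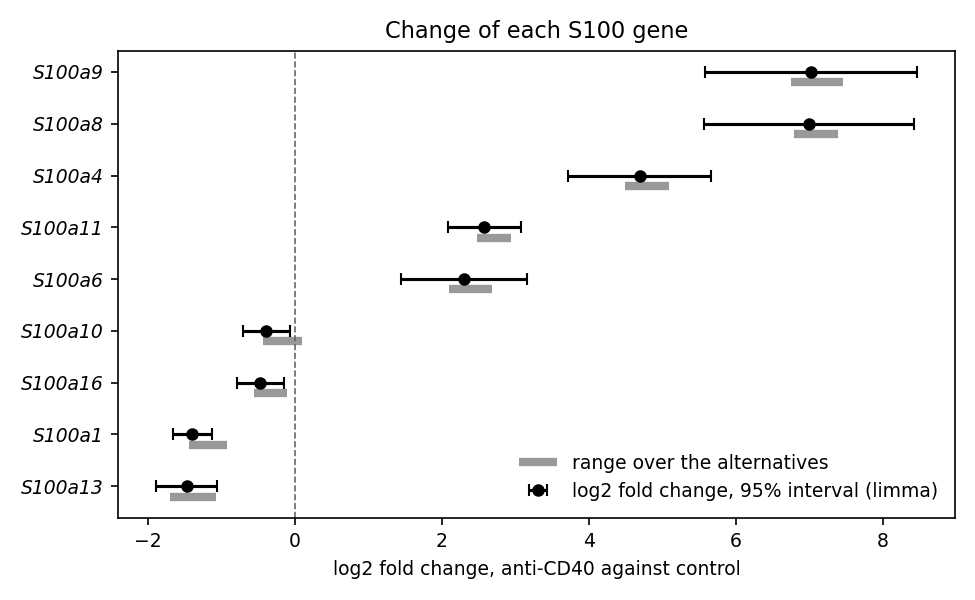
Log2 fold change, anti-CD40 against control, of each S100 gene (points) with the 95% interval from limma (lines) and the range over the alternative fits (gray bars). The 5 genes at the top lie above 0 with their whole range. S100a1 and S100a13 lie below 0 with their whole range, while the gray bar of S100a10 crosses 0 and that of S100a16 ends at -0.11.

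When the members were ordered by log2 fold change, 4 of the 8 neighboring pairs differed beyond the spread between mice, by an exact permutation test on the ratio of the pair in each mouse. The pairs that differed were S100a8 and S100a4 (by 2.31 on the log2 scale), S100a4 and S100a11 (2.11), S100a6 and S100a10 (2.69) and S100a16 and S100a1 (0.92), each with an exact permutation p of 0.0238, or 0.0476 adjusted over the 8 pairs. The differences within the other pairs were 0.023 for S100a9 and S100a8, 0.28 for S100a11 and S100a6, 0.085 for S100a10 and S100a16 and 0.077 for S100a1 and S100a13 (adjusted exact permutation p from 0.724 to 0.905). The pairs were picked by the same fold changes that the test compares, and 0.0238 is the smallest p the design allows. Pairs that were not called may still differ, and the order within them is not fixed by these mice.

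The remaining S100 genes of the table were low, with several near or at its floor, an FPKM of 0.01. Of these 8 genes 3 were tested, and limma called none at an adjusted p under 0.05, nor had any (0 of 3) an unadjusted p under 0.05. S100a14, which lies between S100a13 and S100a16, had mean FPKM of 0.0877 ± 0.0903 (SD, n = 3 treated mice) and 0.281 ± 0.213 (SD, n = 6 controls), a log2 difference of -0.96 with a limma adjusted p of 0.123. By the steps between low values, this rests on 4 reads after anti-CD40 and 23 in controls, as the smallest whole numbers that fit. S100b, on chromosome 10, was at 0.178 ± 0.0473 (SD, n = 3) and 0.395 ± 0.358 (SD, n = 6), with an adjusted p of 0.422 from limma. S100g, which encodes the calcium carrier calbindin-D9k, was at 2.92 ± 2.01 (SD, n = 3) and 2.88 ± 1.62 (SD, n = 6). Its row spans far more of chromosome X (162407200 to 163352564) than the annotated gene (162961992 to 162964599), so what it holds is uncertain. S100a3, next to S100a4, was below the mean FPKM needed for a test. Its smallest whole numbers of reads were 2, 1 and 1 in the anti-CD40 mice and 1 in 1 of the 6 control mice. S100a2 and S100z were above the floor in 1 mouse each, an anti-CD40 mouse in both cases. With a single value there is no step to compare, so their read numbers cannot be told. S100a5 and S100a7a were at the floor in all 9 mice. Calls at such low values depended on the setting. Without the filter on low values, S100a3 was called higher (log2 fold change 0.85, limma adjusted p = 0.0428). With quantile normalization, S100a14 was called lower (-1.30, limma adjusted p = 0.0295).

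The genes of proteins that S100 proteins bind, or through which they signal, were called in both directions. Of 26 listed genes 24 were tested, of which limma called 9 higher and 4 lower, where 23.5% and 21.7% of all genes tested were called. The median log2 fold change was 0.50, against 0.0056 over all genes tested. The list was compiled from general knowledge with earlier results of these mice known. Both shares of the list depend on scaling. With the Saa genes left out and rescaling, 16 were higher and 1 lower, and with quantile normalization 2 were lower. Leaving out the Saa genes also moved the median of all genes to 0.35. The 23.5% and 21.7% of all genes belong to the fit without these changes.

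Among the 6 genes of receptors, 1 rose and 1 fell. Cd14, which encodes a coreceptor of TLR4 on myeloid cells, went up from 1.49 ± 0.370 (SD, n = 6 controls) to 48.0 ± 7.93 (SD, n = 3 treated mice), with a limma adjusted p of 1.45e-07. The log2 fold change of Tlr4 itself was 0.50 and that of its partner Ly96 -0.06, with limma adjusted p of 0.133 and 0.807. Ager, which encodes RAGE, was near the floor, at 0.273 ± 0.142 (SD, n = 3) and 0.0866 ± 0.0810 (SD, n = 6), with an adjusted p of 0.0561 from limma. Bsg, which encodes basigin, a receptor of S100A9, fell from 299 ± 55.8 (SD, n = 6) to 165 ± 68.6 (SD, n = 3), with an adjusted p of 0.00913 from limma, but of 0.147 with quantile normalization and 0.0667 with the Saa genes left out. That last setting, which puts the median of all genes at 0.35, called Tlr4 and Ager higher (log2 fold changes 0.84 and 1.26, limma adjusted p = 0.0233 and 0.0203). With a control mean under 0.1, Ager reached the test only through its anti-CD40 values. For Cd36, a fatty acid carrier, limma gave -0.14 with an adjusted p of 0.713.

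Among the 4 annexins tested, membrane-binding proteins that pair with S100 dimers, 2 rose and 1 fell. Anxa2 went up by 2.26 on the log2 scale, from 27.5 ± 5.10 (SD, n = 6 controls) to 130 ± 7.34 (SD, n = 3 treated mice), with a limma adjusted p of 4.32e-06, while its partner gene S100a10 had one of -0.39, which was not stable. Anxa1, the partner of S100a11, had a log2 fold change of 1.71 with groups that did not overlap, but an adjusted p of 0.0599 from limma. Anxa5 rose by 1.11 on the log2 scale, and Anxa6 fell by 0.48 (limma adjusted p = 0.0161, with 0.0795 after quantile normalization and 0.433 after leaving out the Saa genes). Anxa11 was under the mean FPKM needed for a test.

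Of the 14 genes of other targets tested, 6 rose and 2 fell. Those that rose included Cyba and Cybb, which encode subunits of the phagocyte NADPH oxidase that calprotectin helps to switch on, with log2 fold changes of 2.60 and 2.58. Myh9, the heavy chain of non-muscle myosin IIA and the target of S100A4, went up from 6.33 ± 0.778 (SD, n = 6 controls) to 16.97 ± 1.07 (SD, n = 3). Plaur and Plat, which encode the urokinase receptor and tissue plasminogen activator, rose by 3.24 and 2.32 on the log2 scale. Fgf1 and Syt1, whose proteins travel with S100A13 out of the cell, fell by 0.82 (adjusted p = 0.00736 from limma) and 1.84 (adjusted p = 0.00153 from limma) on the log2 scale. The fall of Fgf1 was not called with the Saa genes left out (adjusted p = 0.0615 from limma). The S100A6 partners Cacybp and Sugt1, the S100A10 partner Ahnak, the calcium pump gene Atp2a2, Plg and Trp53 had log2 fold changes between -0.35 and 0.50 and were not called. Of these, Sugt1 and Atp2a2 were called higher with quantile normalization (limma adjusted p = 0.0327 and 0.0382), and Cacybp, Sugt1, Atp2a2 and Trp53 with the Saa genes left out (0.0271, 0.00917, 0.00944 and 0.00588).

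Of 6 genes of factors known to act on S100 genes, 3 rose and 1 fell. Of all genes tested, 23.5% were called higher and 21.7% lower. Spi1, which encodes the myeloid factor PU.1, rose by 1.92 on the log2 scale, Hif1a by 1.11 and Stat3 by 1.07. Cebpa, which encodes a C/EBP factor of hepatocytes and granulocytes, fell by 1.49. The log2 fold change of Cebpb was 0.53 (limma adjusted p = 0.27, with 0.0402 after quantile normalization), and that of the cytokine gene Il10 was -0.29 (limma adjusted p = 0.528).

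**Figure D5:**
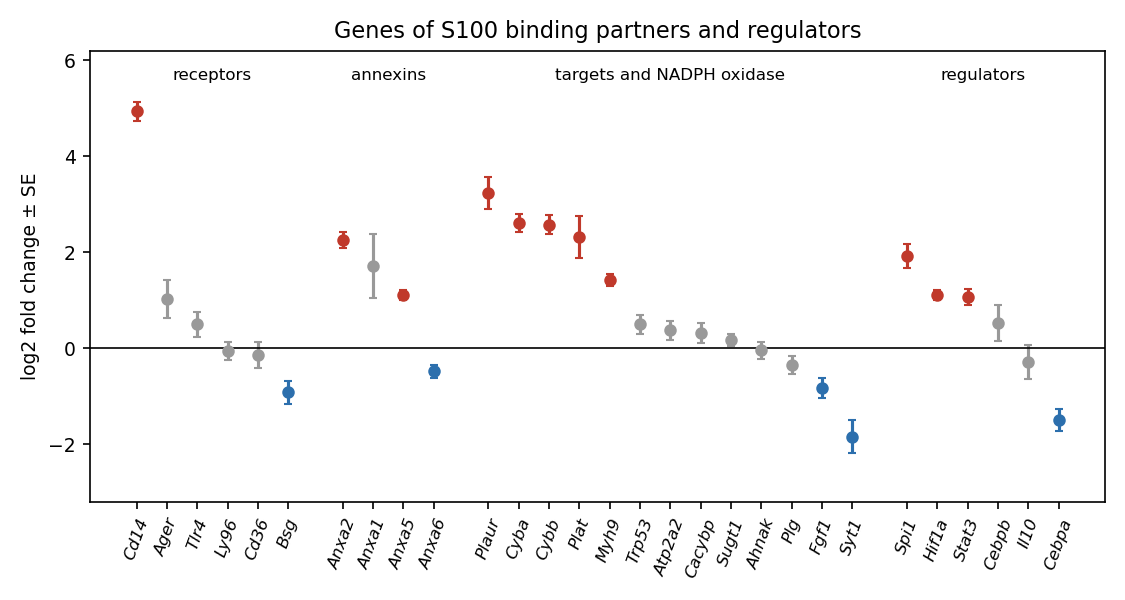
Log2 fold change with its standard error from limma for the tested genes named in the text of S100 receptors, annexins, other targets and regulators, in descending order within each group. Red points were called higher and blue points lower (adjusted p under 0.05), and gray points were not called. Cd14 is highest at 4.94 and Syt1 lowest at -1.84.

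For the 8 members whose groups did not overlap, the genes most like each in profile over the 9 mice were taken by the root mean square difference of their centered log2(FPKM + 0.1) values, with S100 genes left out. Nearest to S100a9 were H2-M2 (0.593), Gm5483 (0.694) and Irg1 (0.696). All of these were farther from S100a9 than S100a8 was (0.260), and no gene tested was nearer to it than S100a8. S100a8 was followed by Retnlg (0.605), H2-M2 (0.675) and Irg1 (0.696). S100a4 had Napsa (0.285), Glipr2 (0.305) and Mcemp1 (0.355), S100a11 had Runx3 (0.103), Ly9 (0.118) and Epsti1 (0.165), and S100a6 had Ap1s3 (0.212), Gm4841 (0.225) and Ctla2a (0.241). Among the lower members, S100a1 was nearest to Atp5k (0.0803), Cyc1 (0.0887) and D10Jhu81e (0.0926), S100a13 to Vmo1 (0.163), Ftl1 (0.167) and Ndufa13 (0.184), and S100a10 to Tmem126b (0.0681) and Med8 (0.0867). Outside S100a8 and S100a9, many other genes were nearer than the nearest other member. They numbered 315 for S100a4, 493 for S100a11, 184 for S100a6 and 294 for S100a10. S100a1 and S100a13 were each other's nearest member (0.286), with 471 genes nearer to S100a1 and 108 nearer to S100a13. The difference between the 2 groups is part of each profile, and how much of the likeness it makes up was not tested.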

How the data were processed

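Liver RNA from 9 mice was prepared by the authors with the QuantSeq 3′ kit, sequenced on an Illumina NextSeq and aligned to mm10 with STAR. The FPKM values (fragments per kilobase, scaled to mapped reads) were made with Cufflinks and CuffDiff and deposited for 24341 gene names, with a floor of 0.01. Tool versions, the annotation and any filter behind the table are not given in the sources used here. Mice were grouped by the treatment label, and no batch is named.

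After 15 genes with a failed value were removed, log2(FPKM + 0.1) was tested with limma 3.58.1 in R 4.3.3 (trended eBayes, 2-sided, Benjamini-Hochberg adjustment at 0.05) in the 13807 genes whose mean FPKM reached 0.1. On this scale the fold changes of low genes come out too small. Ratios and single values were tested by exact permutation over the 84 divisions of the mice into 3 and 6, with 0.0238 as the smallest 2-sided p. Tests were checked on simulated data. Python 3.11.15 with scipy 1.17.1 did the other steps. Motifs were searched in RefSeq windows, and shared 40-base stretches in GENCODE transcripts.

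The depth is unknown, since read totals are not in the table. Each mouse had 14684 to 15545 genes above the floor, and 1 read was worth 0.884 to 1.15 times its geometric mean. Only 67.6% of 3594 low genes came out as whole reads in every mouse (tolerance 0.06), so no count test was run.

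The members and the lists were chosen with earlier results of these data known. Named were all members, the other S100 genes above the floor, tested partner and regulator genes, leading markers, and the 3 genes most like each member whose groups did not overlap, except that 2 genes taken by this rule are not reported here. The alternatives were other pseudocounts (1 and 0.01), other filters (none, or a mean FPKM of 1), and quantile and median of ratios scaling. Others were rescaling without the Saa genes, eBayes untrended or robust, array weights, an adjusted p under 0.01, and each mouse left out. The 20 alternative fits and their ranges do not count the stricter threshold. They include the fit without anti-CD40 mouse 5 and control mouse 4 together, chosen after the data were seen.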

Additional observations from a re-analysis of the deposited data

Results flagged for a closer look

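In 13 sets of values from the 6 control mice, 1 had a mouse apart from the rest, where chance gives about 0.65 if the sets are independent and normally distributed. The set was S100a9, in which control mouse 4 was highest with an FPKM of 50.3 and mouse 7 next with 18.7, a gap of 0.686 of the whole range. Mouse 4 was also the highest control mouse in S100a8 (99.2), where mouse 7 at 61.3 was nearer. The lowest anti-CD40 mouse was 24.6 times mouse 4 in S100a9. Without mouse 4 the S100a9 call was unchanged.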

How the results depend on the processing

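The 5 members that rose were called in every alternative run. The 4 that fell became 2 (S100a1 and S100a13) with quantile normalization, with the Saa genes left out and each mouse rescaled, with an adjusted p under 0.01, and without anti-CD40 mouse 5 and control mouse 4 together, a setting chosen after seeing the data. Leaving out single mice, the count ran from 2 (without anti-CD40 mouse 2 or 5) to 4. S100a10 reversed to 0.088 with quantile normalization. Of the partner genes, 9 higher became 16 with the Saa genes left out, and 4 lower became 2 with quantile normalization and 1 with the Saa genes left out. Of the other S100 genes, 0 higher became 1 without a filter (S100a3, log2 fold change 0.85) and 0 lower became 1 with quantile normalization (S100a14, -1.30). Leaving out the Saa genes moved the median of all genes from 0.0056 to 0.35, and quantile normalization moved it to -0.091. The ratio of S100a8 to S100a9 and the 4 neighboring pairs kept their side of the threshold with pseudocounts of 1 and 0.01, the other settings with a test that were run for them. No paired analysis was possible because the mouse numbers are not shared between the groups. The cause of these shifts was not tested. With 3 anti-CD40 mice and no read totals, the calls of small changes and of low genes are the least certain.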
